A study of Homo sapiens with 12 samples.

Results

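The 2 control groups of the series were compared with each other: HOS cells given a non-targeting siRNA (siNeg) and HOS cells that carry an empty vector (Mock). HOS is a human osteosarcoma cell line, and each group had 3 libraries, so 6 of the 12 libraries of the series are described. The Mock cells were transfected with empty vector, selected with geneticin (G418) and kept as a resistant pool, not as a clone. The siNeg cells took up a control siRNA, and no drug selection is described for them. The other 6 libraries came from cells with altered CIN85, an adaptor protein encoded by SH3KBP1: upCIN85 cells were a geneticin-resistant pool transfected with the pRc/CMV2-Rukl plasmid, which encodes full-length CIN85, and several siRNAs that target CIN85 were given together to siCIN85 cells. CIN85 was not targeted in siNeg or Mock. siRNA transfection, vector with drug selection, and any difference of culture or batch between the arms changed together between siNeg and Mock, so their parts in a difference cannot be told apart. The time from siRNA transfection to harvest and the origin of the 3 libraries of a group from separate cultures are not given in the sources used here, so the P-values measure only the spread between these libraries, which may be technical.

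Most of the genes that differed between the controls were higher in siNeg, and inflammatory genes led them. NF-κB is a family of transcription factors held inactive in the cytoplasm by inhibitors such as NFKBIA (IκBα). Once freed by cytokine, stress or pathogen signals, it switches on chemokine genes and, as feedback, the genes of its own inhibitors. Interferon-stimulated genes form a separate antiviral programme: RNA sensors such as DDX58 (RIG-I) and IFIH1 (MDA5) lead to interferon production, and the response to interferon acts through a promoter element called ISRE. The sensors are themselves on the list of interferon-stimulated genes.

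Promoters of 7 called genes and of 3 interferon-stimulated genes are shown because they hold motifs of the types by which these programmes are described. Each line gives the 150 bases before the gene start, 5′ to 3′ on the strand of the gene, from RefSeq on GRCh38.p14. In the first 7, capitals mark matches to GGNNTTTCC on either strand, an NF-κB-type motif.
CXCL8, chr4:73740419-73740568, plus strand: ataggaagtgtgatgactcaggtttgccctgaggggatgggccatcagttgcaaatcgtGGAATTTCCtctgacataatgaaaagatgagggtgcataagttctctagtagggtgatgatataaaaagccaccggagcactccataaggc
CXCL1, chr4:73869243-73869392, plus strand: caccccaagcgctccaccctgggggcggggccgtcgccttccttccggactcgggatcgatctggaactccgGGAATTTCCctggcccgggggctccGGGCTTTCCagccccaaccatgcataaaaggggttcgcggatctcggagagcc
CXCL2, chr4:74099196-74099345, minus strand: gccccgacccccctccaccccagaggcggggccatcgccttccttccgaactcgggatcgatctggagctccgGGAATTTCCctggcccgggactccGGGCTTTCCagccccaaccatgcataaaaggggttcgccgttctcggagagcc
CXCL3, chr4:74038690-74038839, minus strand: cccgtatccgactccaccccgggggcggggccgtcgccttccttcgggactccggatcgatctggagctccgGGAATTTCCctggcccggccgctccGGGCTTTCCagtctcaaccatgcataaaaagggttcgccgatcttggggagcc
TNFRSF9, chr1:7940840-7940989, minus strand: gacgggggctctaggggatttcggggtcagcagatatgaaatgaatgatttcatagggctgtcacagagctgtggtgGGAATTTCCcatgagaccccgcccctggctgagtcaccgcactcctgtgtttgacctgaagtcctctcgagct
NFKBIA, chr14:35404750-35404899, minus strand: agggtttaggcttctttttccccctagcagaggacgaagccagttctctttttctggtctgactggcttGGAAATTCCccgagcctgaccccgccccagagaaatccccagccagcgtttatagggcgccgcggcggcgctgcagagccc
TNFAIP3, chr6:137867109-137867258, plus strand: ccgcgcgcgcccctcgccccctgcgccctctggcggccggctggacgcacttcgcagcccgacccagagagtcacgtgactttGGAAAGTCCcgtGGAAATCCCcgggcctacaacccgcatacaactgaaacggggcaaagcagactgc
In the next 3, capitals mark matches on either strand to GAAA, any 2 bases and GAAA, an ISRE-type motif. The pair of matches in ISG15 overlap each other.
IFI6, chr1:27672193-27672342, minus strand: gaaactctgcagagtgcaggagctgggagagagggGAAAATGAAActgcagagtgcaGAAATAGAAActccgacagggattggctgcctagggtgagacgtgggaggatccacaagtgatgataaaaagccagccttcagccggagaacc
IFIT1, chr10:89392473-89392622, plus strand: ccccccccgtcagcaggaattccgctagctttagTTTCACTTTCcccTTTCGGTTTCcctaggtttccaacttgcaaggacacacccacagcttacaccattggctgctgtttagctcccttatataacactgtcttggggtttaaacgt
ISG15, chr1:1013347-1013496, plus strand: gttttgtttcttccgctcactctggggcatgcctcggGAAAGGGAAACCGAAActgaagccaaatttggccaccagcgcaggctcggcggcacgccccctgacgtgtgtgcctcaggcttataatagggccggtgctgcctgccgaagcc

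All 7 NF-κB-type lines come from genes called higher in siNeg, and the 3 ISRE-type lines from genes that were high in 1 siNeg library. The match in CXCL8 starts 91 bases before the gene start. CXCL1, CXCL2 and CXCL3, neighbouring chemokine genes on chromosome 4, share an unbroken run of 23 bases around their first match and hold a further match 53 bases before the start. Of all 35116 RefSeq promoters in the table, each of 300 bases (250 before to 50 after the start), 6.26% held the NF-κB-type motif and 3.57% the ISRE-type motif. A match of one motif overlapped a match of the other in 26 promoters. A promoter was found for 19 of the 24 tested NF-κB target genes, and 15 of those 19 held the NF-κB-type motif. It was found for 31 of the 37 tested interferon-stimulated genes, of which 20 held the ISRE-type motif. These are counts of genes with a match in any entry. Counted likewise, 8.98% of the 9890 tested genes with a promoter held the NF-κB-type motif and 3.84% the ISRE-type motif. Of the genes called higher but not on the NF-κB list, 27 had a promoter and 3 (11.1%) held the NF-κB-type motif. Promoters were found for 79.2% of the NF-κB target genes and 75% of the 52 genes called higher in siNeg, against 78.9% of all tested genes. The lists were written as known targets and the lines shown were picked for their motifs. A comparison of motif shares between these sets is therefore void. A match describes the letters of a window and not a bound site.

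Total counts ranged from 5334731 to 5774968 in Mock and from 4011368 to 4174860 in siNeg, without overlap, and the mitochondrially encoded share was 3.52 to 5.38% in Mock and 4.36 to 7.53% in siNeg. Levels are given as counts scaled to library size (CPM) with TMM factors. The counts come from transcript 3′ ends and are not divided by length. SH3KBP1 stood at 76.6, 82.8 and 73 CPM in Mock and at 85.5, 87.2 and 82.6 CPM in siNeg. Its log2FC of 0.14 (SE 0.16, adjusted P = 0.778) had a 95% interval from -0.20 to 0.47. All 10 mesenchymal markers were tested, and vimentin (VIM) reached 589, 566 and 627 CPM in Mock and 571, 458 and 520.1 CPM in siNeg. Of 9 epithelial markers with a row, 3 passed the filter on low counts, namely EPCAM (37.8, 36.5 and 43.3 CPM in Mock and 36.5, 29.8 and 35.9 CPM in siNeg), CDH1 and ELF3. Of 11 blood and endothelial markers with a row, CDH5 and TEK passed, each below 5 CPM in every library of both groups. None of these 15 tested markers was called by edgeR or by DESeq2, with 4 at an unadjusted P below 0.05, which 12.4% of all tested genes had. These 4 were all higher in siNeg, namely PRRX1 (log2FC 1.18), FN1 (0.46), CDH2 (0.34) and ELF3 (1.81). VIM and EPCAM leaned the other way, each with a log2FC of -0.20. Of the 10 mesenchymal markers, 5 had a positive and 5 a negative log2FC, and of the 3 epithelial markers 2 were positive and 1 negative. Of 16 osteoblast lineage genes with a row, 11 were tested and none was called by edgeR or DESeq2 (3 at an unadjusted P below 0.05, all lower, median log2FC -0.20). RUNX2 stood at 32.7, 18.7 and 20.2 CPM in Mock and 12.5, 10.3 and 21.4 CPM in siNeg, and ALPL, the alkaline phosphatase of mineralising cells, did not exceed 1.05 CPM.

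The first question was how many genes separate the controls. Of 12542 genes tested, 66 (0.526%) passed an adjusted P of 0.05 in edgeR's quasi-likelihood test with Benjamini-Hochberg adjustment, 52 (0.415%) higher and 14 (0.112%) lower in siNeg. With an absolute log2FC above 0.59 as well, 53 remained (0.423%), 44 higher and 9 lower (0.351% and 0.0718%). The log2FC of the called genes ran from 0.45 to 3.91 among the higher and from -1.20 to -0.48 among the lower genes, and 26 of the higher genes exceeded a doubling against 1 lower gene beyond a halving, INKA2. All 66 had non-overlapping libraries, which 19.4% of all tested genes also had (9.48% with siNeg higher and 9.94% with Mock higher). Among all tested genes, 849 (6.77%) were higher and 711 (5.67%) lower at an unadjusted P below 0.05, and the median log2FC was 0.00. The counts depended on every library: without Mock replicate 1, 2 or 3 they were 26, 9 and 7, and without siNeg replicate 1, 2 or 3 they were 34, 8 and 134. All 66 genes kept their direction in these 6 fits, and 5 stayed called in each, namely CXCL8, CXCL1, CTSS, C15orf48 and BIRC3.

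**Figure D1:**
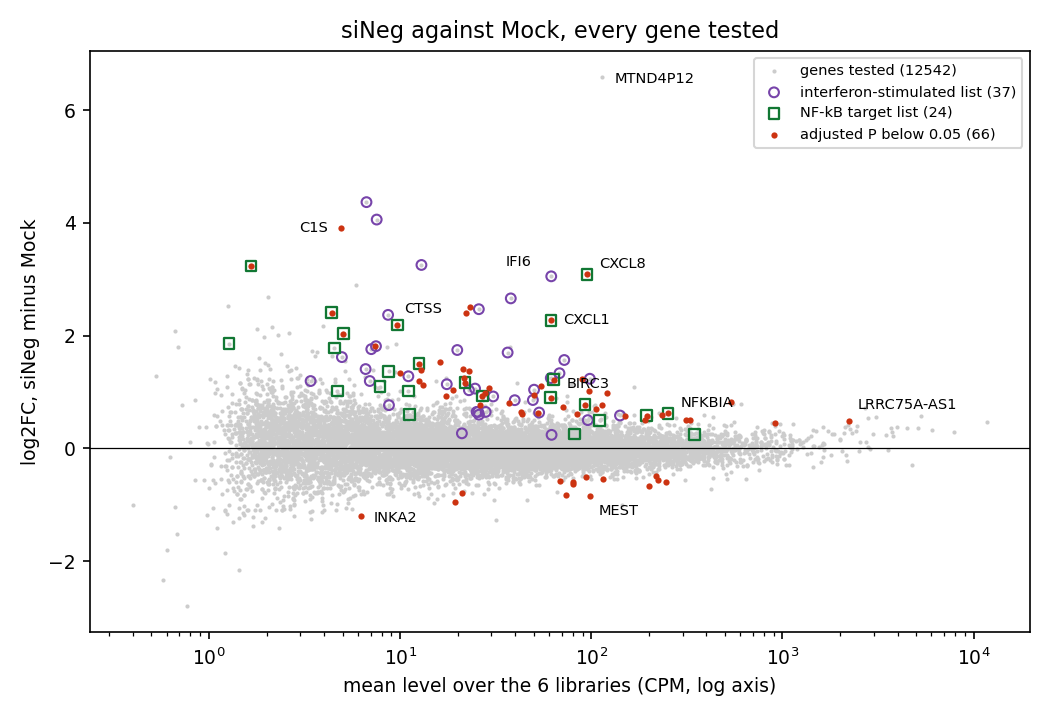
Mean level over the 6 libraries (CPM, log axis) against log2FC of siNeg minus Mock for each of the 12542 genes tested (grey), with the 66 called genes in red, the 24 tested NF-κB target genes as squares and the 37 tested interferon-stimulated genes as circles. Both lists lie above 0, but red points fill 14 squares and none of the circles, and the grey point at the top is the mitochondrial pseudogene MTND4P12.

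NF-κB target genes were the list with the most called genes. Of 31 listed genes with a row, 24 were tested. The filter keeps genes counted in as few as 3 libraries, so a gene high in 1 group can enter through that group. The members CCL20, CXCL2, IL6 and SAA1 entered only through the siRNA groups. The list counts and the median below include them, although their direction adds no support. Of the 24 tested members, 14 were called higher in siNeg and none lower, against 0.415% of all tested genes called higher. The list's median log2FC was 1.13 (median of all genes 0.00), 24 of 24 members had a positive log2FC (29 of 31 with no filter on low counts), and 21 of 24 had non-overlapping libraries, which 9.48% of all tested genes had with siNeg higher. DESeq2 called 16. The count of 14 fell to 4 without Mock replicate 2, to 3 without Mock replicate 3 and to 5 without siNeg replicate 2. The summed level of the 24 members lay between 1054 and 1199 CPM in Mock and between 1827 and 1953 CPM in siNeg. In the 14 called members, siNeg replicate 1 was the highest siNeg library for 6, replicate 2 for 6 and replicate 3 for 2.

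Chemokines, the secreted proteins that attract leukocytes, were among the members with the highest log2FC. CXCL8 (interleukin-8), which draws neutrophils, stood at 20.7, 15.1 and 24.2 CPM in the Mock libraries and at 116, 196 and 198 CPM in the siNeg libraries. The lowest siNeg library was thus several times above the highest Mock library, and the log2FC was 3.09 (SE 0.26, adjusted P = 1.1e-05). CXCL1, a ligand of the same receptor family, was at 26.5, 15.4 and 21.4 CPM in Mock and 102, 115 and 89.1 CPM in siNeg, a log2FC of 2.27 (SE 0.20, adjusted P = 1.7e-05). Its spread within each group was small beside the gap between them. CXCL3 was at 5.46, 1.87 and 3.16 CPM in Mock and 20.2, 11 and 16.4 CPM in siNeg, with a log2FC of 2.19 (adjusted P = 0.00707). CXCL2 was at 3.01, 1.36 and 1.58 CPM in Mock and 7.5, 8.55 and 8.33 CPM in siNeg, with a log2FC of 2.04 (adjusted P = 0.0131). Both had non-overlapping libraries at low levels. CXCL1, CXCL2 and CXCL3 are close paralogs, and how reads that fit more than one of them were counted is not given in the sources used here, so the split among the 3 is uncertain. CCL20 was at 0.752, 0.17 and 0 CPM in Mock and 3.5, 3.18 and 2.34 CPM in siNeg (log2FC 3.24, adjusted P = 0.0301). It had 4, 1 and 0 counts in Mock, 14, 13 and 9 in siNeg and none in upCIN85, so it passed the filter only through the siRNA groups, its log2FC is imprecise and its call supports nothing. Of the other 23 members, 13 were called. Among these, CXCL2 had 16, 8 and 9 counts in Mock and 4, 1 and 3 in upCIN85. SAA1, described below, had 11, 3 and 9 counts in Mock and 3, 4 and 8 in upCIN85. Both likewise passed the filter only through the siRNA groups, so their calls support nothing either. CXCL5 at 1.86, CCL2 at 1.37 and the cytokine IL6 at 1.78 had log2FC of like sign that did not pass (adjusted P = 0.19, 0.0789 and 0.0866). IL6 had 17, 9 and 8 counts in Mock and 4, 2 and 6 in upCIN85. It too passed the filter only through the siRNA groups, so its sign supports nothing.

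The inhibitors that NF-κB induces were higher in siNeg as well. NFKBIA, which retains NF-κB in the cytoplasm, was at 189, 193 and 213 CPM in Mock and 281, 344 and 292 CPM in siNeg. It was the most abundant called member of the list, and its log2FC of 0.62 (SE 0.12, adjusted P = 0.0234) was among the smaller ones. TNFAIP3 (A20), an enzyme that edits ubiquitin chains on signalling proteins, was at 7.71, 5.26 and 6.66 CPM in Mock and 22.7, 13 and 20.1 CPM in siNeg, a log2FC of 1.5 (SE 0.27, adjusted P = 0.0153). NFKBIZ, an atypical nuclear inhibitor protein, was at 19.4, 17.8 and 18.4 CPM in Mock and 41, 34.5 and 30.5 CPM in siNeg (log2FC 0.93, adjusted P = 0.00857). The siNeg libraries of all 3 lay above every Mock library. ZC3H12A (Regnase-1), a ribonuclease that degrades cytokine mRNAs and was on no list, was at 26.9, 11.5 and 18.1 CPM in Mock and 44, 39.1 and 35.9 CPM in siNeg (log2FC 1.08, adjusted P = 0.0301). Of the NF-κB subunits on the list, RELB was called at a log2FC of 0.9 (adjusted P = 0.0261), whereas NFKB2 at 1.02 and NFKB1 at 0.25 were not (adjusted P = 0.0942 and 0.391).

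The called survival, adhesion and acute phase genes of the list had log2FC between 0.58 and 2.41. BIRC3 (cIAP2), an inhibitor of apoptosis, was at 38.6, 36.5 and 39.6 CPM in Mock and 74.7, 98.7 and 93.8 CPM in siNeg, a log2FC of 1.22 (SE 0.17, adjusted P = 0.00252) over a tight Mock group. It lies on the plus strand at chr11:102317450-102339403 (GRCh38, GENCODE 29). CFLAR, which blocks caspase-8 activation, was at 157, 154 and 158 CPM in Mock and 218, 229.7 and 253 CPM in siNeg (log2FC 0.58, adjusted P = 0.00857). SOD2, the mitochondrial superoxide dismutase, was at 71.7, 61.3 and 72.1 CPM in Mock and 134, 116 and 101 CPM in siNeg (log2FC 0.78, adjusted P = 0.00857). In each of them the groups did not overlap. ICAM1, the endothelial and tumour cell ligand of leukocyte integrins, had a log2FC of 1.17 (adjusted P = 0.0225), and SAA1, an acute phase protein with a near-identical neighbour gene, had 2.41 (adjusted P = 0.00852) from 2.07, 0.509 and 1.58 CPM in Mock to 7.5, 7.58 and 7.03 CPM in siNeg. BIRC2, the paralog of BIRC3, was not called at 0.25 (adjusted P = 0.562).

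**Figure D2:**
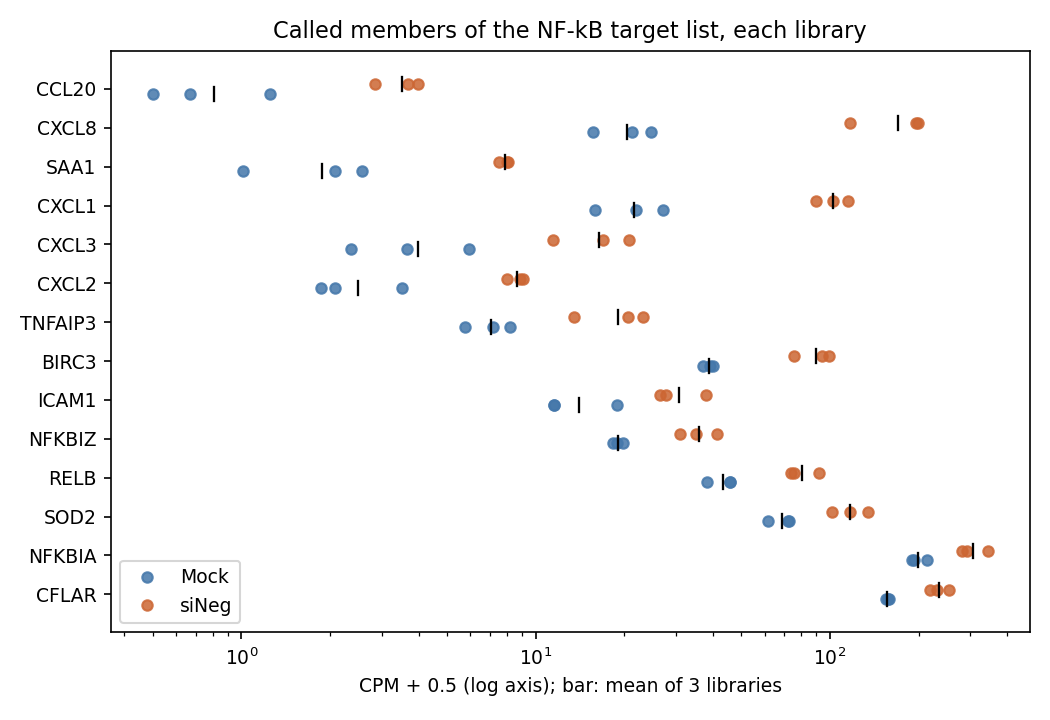
CPM plus 0.5 (log axis) of the 14 called NF-κB target genes in each Mock and siNeg library, ordered by log2FC, with vertical bars at the mean of 3 libraries. In every gene the 3 siNeg points lie to the right of the 3 Mock points, with CCL20 at the lowest counts.

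Outside that list, 36 of the 52 called higher genes were on none of the 24 lists. CTSS (cathepsin S), a lysosomal protease of antigen processing, was at 7.71, 4.58 and 8.94 CPM in Mock and 50.2, 28.8 and 32.6 CPM in siNeg, a log2FC of 2.39 (SE 0.26, adjusted P = 0.000241). The gene lies on the minus strand at chr1:150730196-150765957 (GRCh38, GENCODE 29). C15orf48, a small mitochondrial protein related to NDUFA4, was at 8.47, 4.58 and 7.89 CPM in Mock and 43, 47.2 and 28.1 CPM in siNeg, a log2FC of 2.5 (SE 0.29, adjusted P = 0.000461). It lies on the plus strand at chr15:45430529-45448761. Neither gene lost its call when any one of the 6 libraries was left out. TNFRSF9 (4-1BB), a receptor of the TNF family, was at 16.6, 10.02 and 11.9 CPM in Mock and 30.2, 35.9 and 33.6 CPM in siNeg (log2FC 1.38, adjusted P = 0.00857). The cytokine IL32 was at 9.78, 5.6 and 5.96 CPM in Mock and 19, 20.8 and 15.9 CPM in siNeg (log2FC 1.39, adjusted P = 0.0131). LCP1 (L-plastin), an actin bundling protein typical of leukocytes and many tumour lines, was at 8.65, 7.3 and 9.12 CPM in Mock and 25.5, 28.3 and 18.5 CPM in siNeg (log2FC 1.53, adjusted P = 0.00852). All 3 had non-overlapping groups with no siNeg library standing apart. ESM1 (endocan), a secreted proteoglycan, had a log2FC of 1.82 (adjusted P = 0.0365).

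Further called genes had a log2FC between 0.51 and 1.24. ADAM8, a membrane metalloprotease of leukocytes and tumour cells, had 1.24 (adjusted P = 0.0439), EFNA1, an ephrin ligand, had 1.1 (adjusted P = 0.0195), and VSTM1, a leukocyte surface receptor, had 0.92 (adjusted P = 0.049). GALNT6, which starts mucin-type O-glycosylation, had 1.03 (adjusted P = 0.0234), DRAM1, a lysosomal membrane protein of autophagy, had 0.95 (adjusted P = 0.043), and CD59, which blocks the complement pore, had 0.51 (adjusted P = 0.0186). NCOA7, a coactivator with a domain of oxidation resistance proteins, was at 57.9, 60.6 and 73.3 CPM in Mock and 154, 147 and 89.6 CPM in siNeg (log2FC 1.03, adjusted P = 0.023).

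ITGA1, the alpha chain of a collagen-binding integrin, was at 12.6, 12.7 and 9.47 CPM in Mock and 44, 30.8 and 18 CPM in siNeg (log2FC 1.41, adjusted P = 0.0261). ITGA7, an alpha chain of a laminin-binding integrin, had a log2FC of 1.12 (adjusted P = 0.0346), the laminin chain gene LAMB3 had 1.34 (adjusted P = 0.0234), and DDR1, a collagen receptor kinase, had 0.74 (adjusted P = 0.0341). The siNeg libraries of ITGA1 spread more widely than its Mock libraries. The extracellular matrix list, which holds mainly the structural genes, had 0 of 35 members called by edgeR, and DESeq2 called 1. At an unadjusted P below 0.05 it had 7, against 12.4% of all tested genes.

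C1S, a complement protease, had the highest log2FC among the called genes, 3.91 (SE 0.77, adjusted P = 0.0289), but 1 library carried much of it. It stood at 0.752, 0.34 and 0.701 CPM in Mock and at 21, 5.38 and 1.3 CPM in siNeg, so the siNeg libraries alone spanned more than a 10-fold range. C1S had 4, 2 and 4 counts in Mock and 2, 4 and 3 in upCIN85. It passed the filter only through the siRNA groups, so its call supports nothing. Without siNeg replicate 1 the log2FC was 2.46, and the call held in only 1 of the 6 fits with a library left out, the one without siNeg replicate 3. Its partner C1R was at 2.07, 1.02 and 1.05 CPM in Mock and 23, 6.84 and 1.3 CPM in siNeg with the same order of libraries, and was not called (log2FC 2.91, adjusted P = 0.145). siNeg replicate 1 was also the highest of the 6 control libraries for every tested interferon-stimulated gene.

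Other called genes were spread over varied roles. PSME1 and PSME2, the subunits of the PA28 proteasome activator, were called at log2FC of 0.69 (adjusted P = 0.0301) and 0.62 (adjusted P = 0.04). MT2A, a metallothionein that binds zinc and copper, was at 445, 406 and 310.4 CPM in Mock and 689.9, 649.5 and 717 CPM in siNeg (log2FC 0.82, adjusted P = 0.0261). Its siNeg libraries were close together and above all Mock libraries. JUNB, an AP-1 transcription factor, was the only called member of the 20 tested immediate early genes, at 23.3, 32.3 and 25.4 CPM in Mock and 45.5, 51.8 and 45.3 CPM in siNeg (log2FC 0.81, adjusted P = 0.0153). SFMBT2, a Polycomb group protein, had a log2FC of 1.2 (adjusted P = 0.00852), NNMT, which methylates nicotinamide, had 0.98 (adjusted P = 0.00974), and GRN (progranulin), a lysosomal and secreted protein, had 0.58 (adjusted P = 0.0116). The splicing kinase CLK4 had 0.76 (adjusted P = 0.0336), COX14, an assembly factor of cytochrome c oxidase, had 0.57 (adjusted P = 0.0234), WSB1, a ubiquitin ligase adaptor, had 0.45 (adjusted P = 0.0365), and the long non-coding RNA MIR4435-2HG had 0.51 (adjusted P = 0.0325). MT-TL1, a mitochondrial leucine tRNA next to MT-RNR2, had 1.23 (adjusted P = 0.0279). The pseudogene AC144530.1 (log2FC 0.78, adjusted P = 0.00857), RPL9 (log2FC 0.64, adjusted P = 0.0345), which has many processed copies, and ATP5MGL (log2FC 0.62, adjusted P = 0.0427), a copy of ATP5MG, share sequence with other genes, and their counts are uncertain for that reason. LRRC75A-AS1, at 1741, 1810.3 and 2042 CPM in Mock and 2559, 2647 and 2622 CPM in siNeg, was the most abundant called gene (log2FC 0.49, adjusted P = 0.0308). It is antisense to LRRC75A, and the strand setting of the counting is not given in the sources used here.

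The 14 genes called lower in siNeg formed no listed group: none of them was on any of the 24 lists. MEST, an imprinted gene of an alpha/beta hydrolase fold protein, was at 144, 108 and 126 CPM in Mock and 70.5, 72.3 and 68.5 CPM in siNeg, a log2FC of -0.84 (SE 0.15, adjusted P = 0.0188). CBX1 (HP1β), which binds methylated histone H3 in heterochromatin, was at 303, 292 and 295 CPM in Mock and 183, 198 and 210.2 CPM in siNeg, a log2FC of -0.59 (SE 0.10, adjusted P = 0.0131). MAPRE1 (EB1), a microtubule plus end protein, was at 252, 215 and 267 CPM in Mock and 154, 159 and 149 CPM in siNeg, a log2FC of -0.67 (SE 0.13, adjusted P = 0.0234). These 3 differed by less than a halving, with tight siNeg groups below all Mock libraries. LIX1L at -0.82 (adjusted P = 0.0234), C1orf21 at -0.95 (adjusted P = 0.0234), ST3GAL5, the GM3 ganglioside synthase, at -0.78 (adjusted P = 0.023), and INPP5A, an inositol phosphate phosphatase, at -0.63 (adjusted P = 0.0346) followed. INKA2, an inhibitor of the kinase PAK4, had the lowest log2FC, -1.2 (adjusted P = 0.0382), at 8.65, 9.68 and 7.72 CPM in Mock and 3.0, 4.89 and 3.39 CPM in siNeg. Smaller changes were those of KCTD5, a cullin-3 adaptor (log2FC -0.6, adjusted P = 0.0205), ARL6IP1, which shapes the endoplasmic reticulum (log2FC -0.56, adjusted P = 0.0141), RAB21, a small GTPase of endosomes (log2FC -0.54, adjusted P = 0.0308), and LMNB2, lamin B2 of the nuclear lamina (log2FC -0.48, adjusted P = 0.0301). The forkhead factor FOXD1 (log2FC -0.57, adjusted P = 0.0442) and TRAM2, a translocation protein of the endoplasmic reticulum (log2FC -0.51, adjusted P = 0.0485), completed the 14. None of the 14 stayed called in all 6 fits with 1 library left out.

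Interferon-stimulated genes gave a pattern of their own, with 1 siNeg library far above the others. Of 50 listed genes 37 were tested, since 13 did not pass the filter on low counts, although they reached up to 171 counts in 1 library. Of the 37, edgeR called none, although 31 were higher at an unadjusted P below 0.05, against 6.77% of all tested genes. DESeq2 called 2 of them higher, against 125 of all 12542 tested genes. All 37 had a positive log2FC, with a median of 1.20, against 50.5% of all tested genes with a positive log2FC. Some members were too low in Mock to enter through that group. MX2 was at 1.5, 0.509 and 0.526 CPM in Mock and 40, 2.2 and 0.521 CPM in siNeg. OAS2 was at 0.941, 0.17 and 0.701 CPM in Mock and 35.2, 2.44 and 0.521 CPM in siNeg. The sign and library order of such members are favoured by the filter and support nothing. siNeg replicate 1 was the highest of the 6 control libraries in 37 of 37 genes. siNeg replicate 2 exceeded all Mock libraries in 24 of 37 genes and siNeg replicate 3 in 11 of 37. The summed level of the 37 genes was 899, 761 and 795 CPM in the Mock libraries and 3445, 1026 and 796 CPM in the siNeg libraries. Only siNeg replicate 1 thus stood far from Mock. Without it the median log2FC was 0.29, 27 of 38 tested members were positive and none was called. Without siNeg replicate 3 instead, 19 members were called.

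Effectors and sensors alike showed this order of libraries. IFI6, a mitochondrial protein of the interferon response, was at 17.3, 10.02 and 12.6 CPM in Mock and 298, 23.7 and 8.33 CPM in siNeg (log2FC 3.05, adjusted P = 0.235). MX1, an antiviral GTPase, was at 13.5, 9.34 and 8.24 CPM in Mock and 179, 11.5 and 5.47 CPM in siNeg (log2FC 2.66, adjusted P = 0.225). IFIT1, which binds foreign RNA ends, was at 8.09, 5.77 and 9.82 CPM in Mock and 113, 12 and 5.73 CPM in siNeg (log2FC 2.47, adjusted P = 0.162). In all 3, siNeg replicate 3 lay below every Mock library. ISG15, a ubiquitin-like modifier, was at 17.5, 15.4 and 18.6 CPM in Mock and 139, 17.4 and 11.5 CPM in siNeg. OAS3, which makes the activator of RNase L, was at 44.2, 34.5 and 30.7 CPM in Mock and 232, 53.3 and 38.3 CPM in siNeg. The sensor IFIH1 was at 3.76, 2.21 and 2.46 CPM in Mock and 35.2, 5.38 and 2.86 CPM in siNeg. The sensor DDX58, by contrast, had non-overlapping libraries, at 12, 11.7 and 9.12 CPM in Mock and 43.7, 16.1 and 12.5 CPM in siNeg (log2FC 1.14, adjusted P = 0.207). So did 9 other members, that is 10 of 37 against 9.48% of all tested genes with siNeg higher, among them GBP2, a guanylate-binding protein, which came closest to a call (log2FC 1.41, adjusted P = 0.0505), and the immunoproteasome subunit PSMB9 (log2FC 1.03, adjusted P = 0.0866).

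The series holds a library with the same feature in the other siRNA group. siCIN85 replicate 1 was the highest siCIN85 library in all 37 genes, with a summed level of 1758 CPM against 783 and 800.1 CPM in the other siCIN85 libraries, and the upCIN85 libraries lay between 714 and 822 CPM. The labels give no batch, and whether replicate 1 of both siRNA groups shared a transfection or a day was not tested. The summed level of the NF-κB target genes did not follow this order: siNeg replicate 1 was at 1852 CPM, between the other siNeg libraries, and siCIN85 replicate 1 at 1416 CPM was the lowest of its group. Among the 25 most variable genes within siNeg (mean of at least 10 CPM), 15 were on the interferon list, and among the 25 most variable within Mock none was.

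**Figure D3:**
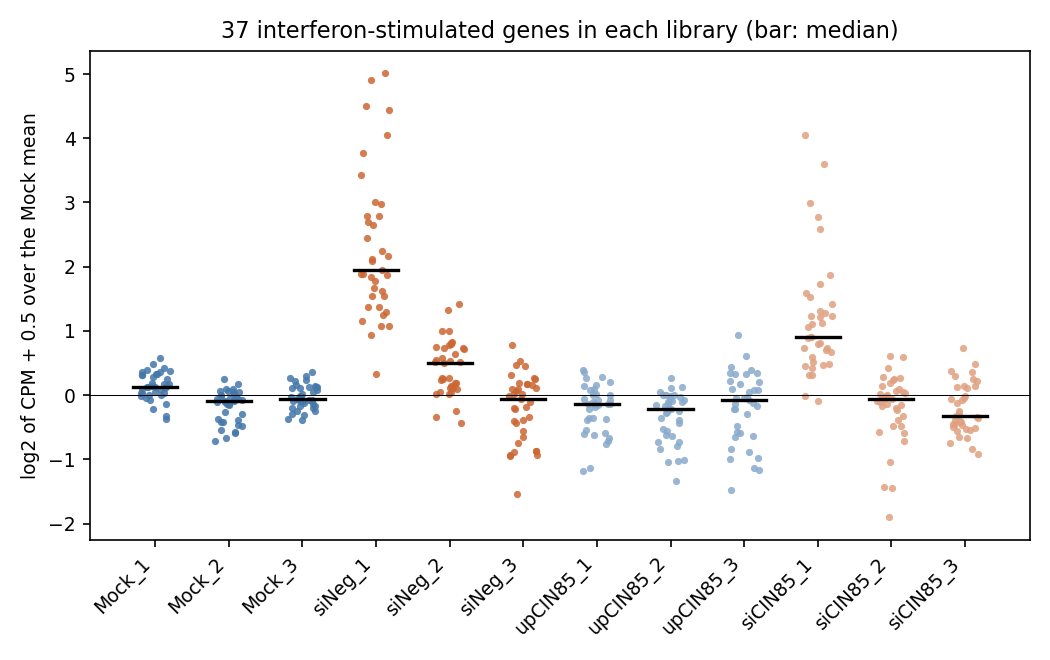
Log2 of CPM plus 0.5 over the mean of the 3 Mock libraries for each of the 37 tested interferon-stimulated genes (points) in all 12 libraries, with bars at the median of the genes. The median is 1.95 in siNeg_1 and 0.91 in siCIN85_1, 0.50 in siNeg_2, and between -0.33 and 0.13 in the other 9 libraries.

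The most abundant genes differed little between the controls. The 15 genes of highest mean level were 7 mitochondrially encoded RNAs, 5 ribosomal protein genes, and ACTG1, TUBA1B and ATP5MG. Their log2FC ran from -0.29 to 0.57, and 13 of the 15 were positive, against 50.5% of all tested genes. Non-overlapping libraries were seen in 5, against 19.4% of all tested genes. edgeR called none (8 at an unadjusted P below 0.05, lowest adjusted P = 0.132), while DESeq2 called 1. Of all tested genes, 12.4% had an unadjusted P below 0.05. MT-RNR2, the mitochondrial large ribosomal RNA, led both groups with 11319, 8013 and 10162 CPM in Mock and 10693, 13547 and 16794 CPM in siNeg. MT-CO3, a cytochrome c oxidase subunit, followed with 8776, 4808 and 7592 CPM in Mock and 6659, 8009.9 and 11248 CPM in siNeg. The groups overlapped in both genes. Among nuclear genes, RPS29 was the highest at 5415 ± 760.2 CPM in Mock and 6768 ± 729 CPM in siNeg (mean ± SD, n = 3). ACTG1, cytoplasmic gamma actin, was at 5050.1, 5150.2 and 5559 CPM in Mock and 3949, 4594 and 4389.6 CPM in siNeg, the lowest log2FC of the 15 (log2FC -0.29, adjusted P = 0.406). TUBA1B, alpha tubulin, was at 3571 ± 147 CPM in Mock and 3517 ± 227 CPM in siNeg (mean ± SD, n = 3), with a log2FC of -0.02. The first 15 ranks shared 13 genes between the groups: RAN and H2AFZ were among them only in Mock, and MT-ATP6 and B2M only in siNeg. B2M, the light chain of MHC class I, was at 1885, 1886 and 2323 CPM in Mock and 4485, 2926 and 2663 CPM in siNeg, highest in siNeg replicate 1 (log2FC 0.73, adjusted P = 0.0774). Of 285 genes with a mean of at least 500 CPM, 3 were called, all higher, namely LRRC75A-AS1, WSB1 and MT2A, against 0.526% of all tested genes.

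**Figure D4:**
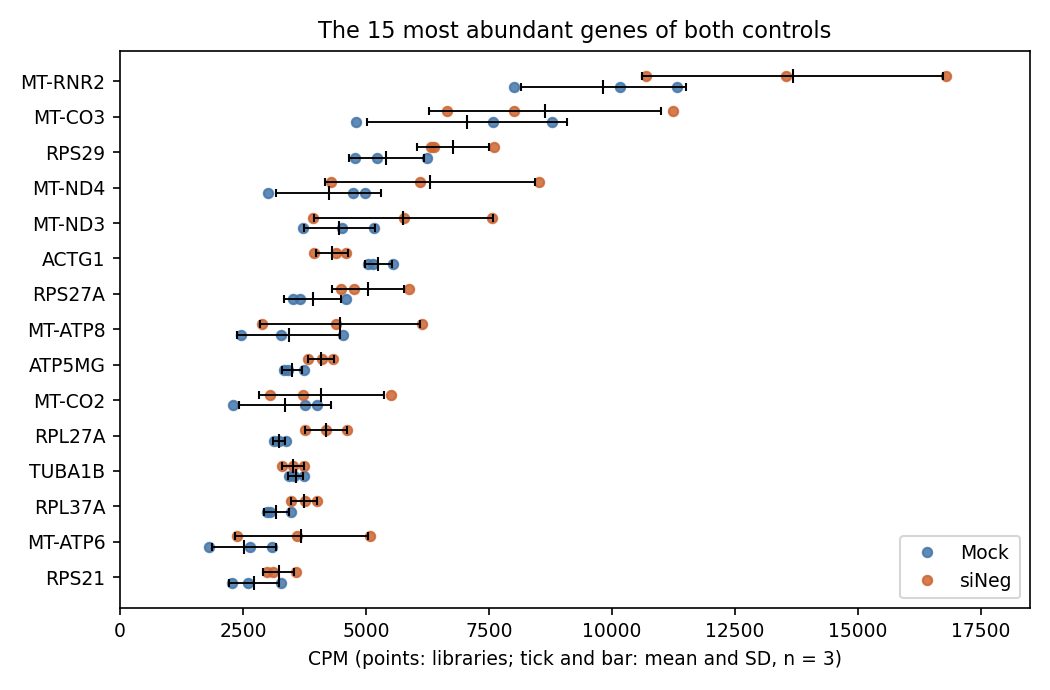
CPM of the 15 most abundant genes in each Mock and siNeg library, with the mean and SD of 3 libraries as tick and bar. The mitochondrially encoded genes spread most, with siNeg replicate 3 highest, and the groups overlap in 10 of the 15.

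Whole classes of abundant transcripts leaned one way without passing the test gene by gene. Among all 12542 tested genes, 50.5% had a positive log2FC, and DESeq2 called 125 higher and 61 lower. At an unadjusted P below 0.05, 6.77% of all tested genes were higher and 5.67% lower. Of 79 ribosomal protein genes 70 had a positive log2FC, with a median of 0.16, and edgeR called only RPL9 (29 at an unadjusted P below 0.05, all higher; 7 called by DESeq2). All 13 mitochondrially encoded protein genes were positive, with a median of 0.39 and none called by edgeR or DESeq2 (5 at an unadjusted P below 0.05). Their groups overlapped in all 13: the summed level was 40338, 24395 and 34914 CPM in Mock and 30825, 42250.2 and 58644 CPM in siNeg, so siNeg replicate 1 lay below 2 Mock libraries and siNeg replicate 3 was the highest. Of 76 nuclear genes of the respiratory chain, 60 were positive with a median of 0.13, and none was called by edgeR (17 at an unadjusted P below 0.05; 5 called by DESeq2). Sterol synthesis and uptake genes leaned the other way: 23 of 23 were negative with a median of -0.26, none was called by edgeR (4 at an unadjusted P below 0.05), and DESeq2 called 1. These signs were the same under each normalization and GC alternative run. Over all genes, log2FC had a Spearman's rho of 0.135 with the GC content of the last 500 bases of the transcript, of -0.148 with transcript length and of -0.121 with mean level, given as a description across genes. Ribosomal protein transcripts are short and abundant, and the part of length and level in the class medians was not tested. With offsets for GC content, none of these 4 medians moved by more than the spread between replicates. Across the lists, 21 of 24 had no called gene.

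The other lists gave small medians. For comparison, 12.4% of all tested genes had an unadjusted P below 0.05. The S-phase genes had a median log2FC of -0.08 (37 tested), the mitosis genes 0.02 (36 tested), the p53 target genes 0.07 (21 tested), the ATF4 target genes 0.03 (37 tested) and the unfolded protein response genes 0.10 (20 tested). The medians of the mitosis, p53 and ATF4 genes changed sign when some single libraries were left out, and that of the ATF4 genes also with offsets for GC content. Genes that answer to SRF and YAP, the factors of actin and stretch signals, had a median of -0.14 with 21 of 29 negative. The ERK feedback genes had -0.17 with 11 of 15 negative, and the 20 tested immediate early genes had -0.11, which turned to 0.03 without siNeg replicate 2. The small RNA pathway genes, which include the siRNA machinery, had -0.06 with 11 of 15 negative. None of these 9 lists had a gene called by edgeR except JUNB, between 2 and 6 genes of each had an unadjusted P below 0.05, and DESeq2 called at most 2 in any of them. The 33 tested glycolysis and HIF target genes had a median of 0.00 (5 at an unadjusted P below 0.05), the 30 lysosome genes 0.09 (7), the 13 cytosolic heat shock genes -0.05 (1), and the 5 nuclear retained RNAs, such as MALAT1 and NEAT1, 0.32 (2). edgeR called none of these, DESeq2 called 1 lysosome gene, and the glycolysis median changed sign with offsets for GC content and under other alternatives, as did the heat shock median without siNeg replicate 1.

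The same contrast of arms could be set beside a pair of groups that shares no library with it, siCIN85 minus upCIN85. That pair also differs in CIN85, in opposite directions by design, so arm and CIN85 cannot be told apart in it. SH3KBP1 stood at 71, 90.04 and 82.8 CPM in upCIN85, which overlapped Mock, and at 3.88, 8.96 and 9.77 CPM in siCIN85. A transcript from a plasmid need not carry the 3′ end of the endogenous gene, so the counts may not show overexpression and do not check that label. In this pair 2049 genes (16.3%) were called, 1047 (8.35%) higher and 1002 (7.99%) lower in siCIN85. Of the 52 genes called higher in siNeg, 51 had a positive log2FC in that pair and 44 were called higher there. MNS1, a coiled-coil protein of motile cilia, was the exception (log2FC of 0.65 and -0.17). Of the 14 called lower, 10 were negative and 4 were called lower. Among all tested genes 63.6% had the same direction in both pairs, so 10 of 14 is near that background. The median log2FC of the 52 genes was 1.00 in siNeg minus Mock and 1.23 in siCIN85 minus upCIN85. Over all 12542 genes the log2FC of both pairs had a Pearson's r of 0.441 and a Spearman's rho of 0.363, as a description across genes, which are not independent replicates. The deviations of a siNeg library from its group mean were correlated over genes with those of the siCIN85 library of like number (r of 0.353, 0.269 and 0.446 for numbers 1, 2 and 3). Those of Mock and upCIN85 libraries of like number had r of 0.326, 0.227 and 0.0989. Values for libraries of unlike number are not given here, so these correlations cannot decide whether libraries of like number shared a source. The pairs are therefore not taken as independent of each other.

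The levels of the called NF-κB target genes were also set out over the 4 groups. The 14 called members were chosen by siNeg above Mock, so the order of those groups is fixed by the choice. upCIN85 had the lowest mean in all 14. CXCL8 averaged 1.35 CPM in upCIN85, 20.001 CPM in Mock, 129 CPM in siCIN85 and 170.04 CPM in siNeg. The siCIN85 libraries (89.3, 181 and 116 CPM) overlapped those of siNeg, whereas all other neighbours in that order were separate. BIRC3 averaged 14.5, 38.2, 72.7 and 89.1 CPM in the same order of groups, with siCIN85 and siNeg again overlapping. Outside the list, NCOA7 (1.03 and 0.09), MT2A (0.82 and 0.07), DDR1 (0.74 and 0.12) and PSME1 (0.69 and 0.15) had a smaller log2FC in siCIN85 minus upCIN85 than in siNeg minus Mock, but the test of the difference, which 122 genes (0.973%) passed, did not call them (adjusted P = 0.107, 0.118, 0.191 and 0.202).

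**Figure D5:**
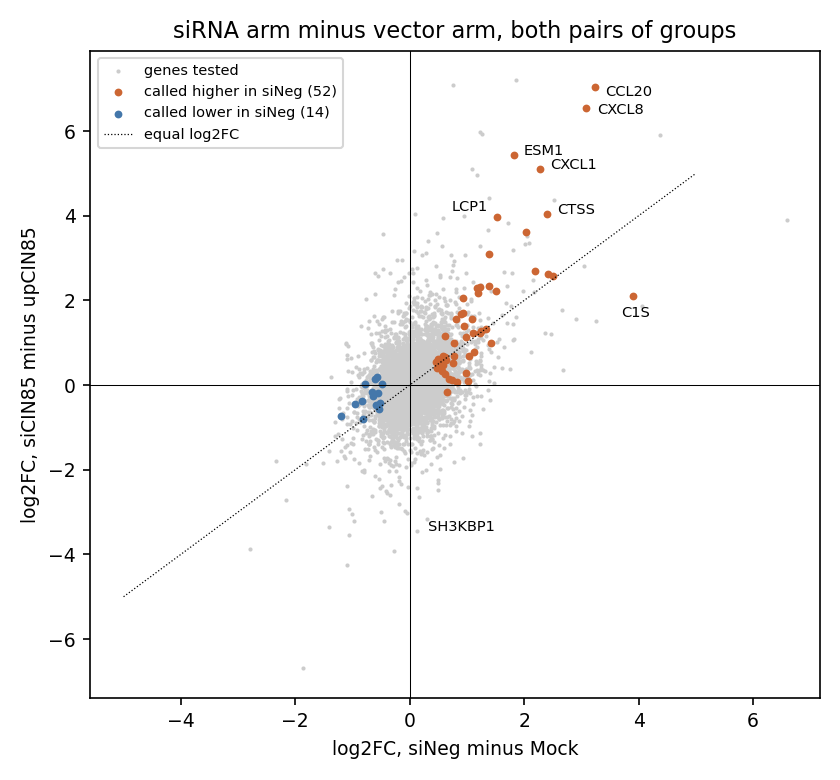
Log2FC of siNeg minus Mock (x axis) against log2FC of siCIN85 minus upCIN85 (y axis) for the 12542 genes tested, with the 52 genes called higher in siNeg in orange, the 14 called lower in blue and a dotted line of equal log2FC. Of the orange points 51 lie above 0 on both axes, CXCL8, CXCL1, LCP1 and ESM1 far above the dotted line, and SH3KBP1 lies near 0 on the x axis and at -3.45 on the y axis.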

How the data were processed

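HOS libraries (3 per group) were made with a 3′ end mRNA kit with unique molecular identifiers. The authors deposited 1 table of raw counts per Ensembl gene. Per the submitters' processing notes, cutadapt 4.3, STAR 2.7.3a, Picard 2.25.6, Subread 2.0 (featureCounts), FastQC, MultiQC 1.10.1 and GRCh38 were used. The annotation, strand setting, treatment of multimapping reads and collapsing of identifiers are not given in the sources used here. If identifiers were not collapsed, PCR copies add to the counts of a library.

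From the deposited counts, 12542 of 25141 genes passed filterByExpr by group (minimum count 10, total 15). edgeR 4.0.16 (R 4.3.3) fitted 1 mean per group over all 12 libraries with TMM factors and 8 residual degrees of freedom, and quasi-likelihood tests with Benjamini-Hochberg adjustment were called at 0.05. SE is the absolute log2FC over the root of F, an approximation. An exact permutation test of 3 against 3 cannot go below P = 0.1. No 2 libraries of a group agreed within sampling noise. Deviations of same-numbered Mock and siNeg libraries were only weakly correlated (r of 0.0751, 0.18 and -0.0600), and no pairing was used. A shared source of these libraries is not excluded by that. The scripts were tested on simulated counts. Gene names came from GENCODE 29 (95 identifiers had no entry), and promoters from RefSeq. Genes were named by a rule: SH3KBP1, the 15 most abundant, the 15 highest and lowest log2FC past both cutoffs with at least 5 CPM in the higher group, the 10 smallest P in each direction, and list and marker members. Other called genes, the uncalled list members, C1R and B2M were named after their values were seen. The groups, the 24 gene lists and the rule were chosen with earlier results of these data known. Alternatives were DESeq2 1.42.0, other normalizations and filters, only 6 libraries, thinning, GC offsets, a replicate block, glmTreat and leaving out libraries. The fit without replicate 1 of both siRNA groups, the fit without mitochondrially encoded genes, and the repeats of all settings for lists and single genes were added after seeing the data.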

Additional observations from a re-analysis of the deposited data

Results flagged for a closer look

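A test of the difference between siNeg minus Mock and siCIN85 minus upCIN85 was passed by 122 of 12542 genes (0.973%), or by 263 with a replicate block. SH3KBP1 and 9 of the 66 genes called between the controls were among the 122. SH3KBP1 differed by 3.58 (SE 0.26, adjusted P = 1.6e-06 in edgeR), with a log2FC of 0.14 between the controls and of -3.45 between siCIN85 and upCIN85. The 9 called genes differed by a negative amount, that is, siCIN85 minus upCIN85 gave the higher log2FC. These were CXCL8 at -3.46 (SE 0.48, adjusted P = 0.00287), CXCL1 at -2.83 (SE 0.35, adjusted P = 0.0013) and the proteoglycan gene ESM1 at -3.63 (SE 0.64, adjusted P = 0.0121). LCP1 followed at -2.45 (adjusted P = 0.00433), the cytokine IL32 at -1.71 (adjusted P = 0.0483) and BIRC3 at -1.1 (adjusted P = 0.0381). NFKBIZ differed by -1.12 (adjusted P = 0.0249) and FOXD1 by -0.765 (adjusted P = 0.0433), and KCTD5 is given below.

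The levels behind these values differed from gene to gene. CXCL1 averaged 2.246 CPM in upCIN85, 21.1 in Mock, 78.6 in siCIN85 and 102 in siNeg. ESM1 averaged 0.716 CPM in upCIN85, 3.26 in Mock, 11.5 in siNeg and 32.8 in siCIN85, and LCP1 had the same order with 2.46, 8.36, 24.1 and 39.2 CPM. KCTD5 differed by -0.747 (adjusted P = 0.0321), with 68.7, 60.6 and 62 CPM in siNeg and between 78.4 and 107 CPM in the other 9 libraries.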

How the results depend on the processing

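All 66 called genes kept their direction wherever they were tested in 21 alternatives. The count of 66 (53 past the fold cutoff) was 376 (244) with no filter on low counts, 186 (101) with DESeq2 on 12 libraries, 177 (99) with DESeq2 on 6, 4 (4) with glmTreat against a fold change of 1.5, and 21 (21) without replicate 1 of both siRNA groups. It stayed within 1.5 times with RLE (66) and upper quartile (68) normalization, a minimum of 10 counts in every library (62), thinning to the smallest total (57), GC offsets (68), the 6 control libraries alone (91) and mitochondrially encoded genes left out (64). A replicate block gave 114 (80) with 12 libraries, 146 (96) with 6 and 124 (80) with GC offsets. Deviations of same-numbered Mock and siNeg libraries were only weakly correlated over genes (r of 0.0751, 0.18 and -0.0600). Such values cannot decide whether libraries of like number shared a source, which is not given in the sources used here. Leaving out 1 library gave 7 to 134 (7 to 123).

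Called NF-κB target genes (14) numbered 9 with at least 10 counts in every library, 2 with glmTreat, 8 without replicate 1 of both siRNA groups, and 3 to 18 with 1 library left out. Called interferon-stimulated genes (0) numbered 40 with no filter on low counts, 1 with the 6 control libraries alone, upper quartile normalization, at least 10 counts in every library, thinning or GC offsets, 2 with DESeq2 on 12 or 6 libraries, 5, 3 and 4 with the replicate block (12 libraries, 6 libraries and GC offsets), and 0 to 19 with 1 library left out. The 2049 genes of siCIN85 minus upCIN85 became 244 with glmTreat, and 935 to 2430 with 1 library left out. The 122 genes of the difference became 554 with no filter, 79 after thinning, 278 with DESeq2, 263 and 284 with the replicate block (alone and with GC offsets), and 33 to 341 with 1 library left out, the highest without upCIN85 replicate 2.

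Without siNeg replicate 1, and alike without replicate 1 of both siRNA groups, the log2FC of 4 of the single interferon-stimulated genes examined changed sign, to -0.37 for XAF1, -0.30 for IFIT3, -0.28 for MX1 and -0.25 for ISG15. With 1 library left out they reached up to 3.82, 1.72, 3.21 and 2.19. For single named genes, 709 values kept direction and call, 164 lost the call, 26 gained it and 8 changed sign. The cause was not tested. Totals of 4011368 to 5774968 counts limit genes near the filter, such as CCL20.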

Other observations

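The highest log2FC among all tested genes was not called. MTND4P12, a mitochondrial pseudogene, was at 3.2, 2.21 and 1.58 CPM in Mock and 3.0, 2.2 and 669 CPM in siNeg (log2FC 6.59, edgeR adjusted P = 0.0941), so 1 library held nearly all of it. That library, siNeg replicate 3, also had the highest mitochondrially encoded share of the 6, at 7.53%. Among the 23 tested sterol synthesis and uptake genes, all with a negative log2FC, the lowest adjusted P was 0.0774, and 8 members had non-overlapping libraries with Mock above siNeg, against 9.94% of all tested genes.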
